A study of Mus musculus with 12 samples.

Results

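The Cyp4 genes encode cytochrome P450 enzymes that hydroxylate fatty acids at the end of the chain away from the carboxyl group. The mRNA levels of 9 of them were followed in the liver: Cyp4a10, Cyp4a12a, Cyp4a12b, Cyp4a14, Cyp4a31, Cyp4a32, Cyp4f14, Cyp4f15 and Cyp4v3. They were chosen by name, as the members of this family taken up among the 52636 genes counted in the RNA-seq data, and all 9 were among the 12453 genes that reached a mean count of 12 and were tested. The samples were livers of male C57Bl/6J mice, 16 weeks old, 1 library per mouse. The 6 VDD-F1 mice were sons of mothers that ate a diet without vitamin D (VDD), with added calcium gluconate, before mating and through pregnancy. The 6 VDS-F1 mice were sons of mothers that ate a nutrient-matched diet with sufficient vitamin D (VDS) over the same time. All mothers received the VDS diet after delivery and all offspring after weaning. The groups thus differed in the mothers' diet up to delivery. Since vitamin D recovers slowly after such a diet, the VDD-F1 pups were also short of it early after birth, and prenatal and neonatal deficiency cannot be told apart. The litters of the mice are not given in the sources used here, and mice that share a litter are not separate samples of a maternal diet. The comparison asks whether prenatal vitamin D deficiency is associated with a lasting difference in the expression of these hydroxylases.

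In omega-oxidation, a Cyp4 enzyme adds a hydroxyl group to the terminal carbon of a fatty acid, alcohol and aldehyde dehydrogenases turn it into a dicarboxylic acid, and peroxisomes shorten that acid. The pathway takes a small share of hepatic fatty acids and is known to become more active when fatty acids overload mitochondria, as in fasting and steatosis. Cyp4a10 and Cyp4a14 are classical targets of the fatty acid-activated nuclear receptor PPARα (gene Ppara), Cyp4a12a is a male-predominant gene whose enzyme makes the eicosanoid 20-HETE from arachidonic acid, and Cyp4f enzymes inactivate leukotriene B4 and related eicosanoids. Cyp4v3 is the mouse counterpart of human CYP4V2, which is mutated in Bietti crystalline dystrophy of the retina.

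The 6 Cyp4a genes followed here lie near each other on chromosome 4 in GRCm38. They are Cyp4a12a (ENSMUSG00000066071.6, chr4:115299046-115332815, plus strand), Cyp4a12b (ENSMUSG00000078597.2, chr4:115411624-115439034, plus strand), Cyp4a14 (ENSMUSG00000028715.2, chr4:115486200-115496142, minus strand), Cyp4a10 (ENSMUSG00000066072.13, chr4:115518264-115533649, plus strand), Cyp4a31 (ENSMUSG00000028712.12, chr4:115563649-115579015, plus strand) and Cyp4a32 (ENSMUSG00000063929.6, chr4:115600969-115621602, plus strand). Cyp4f15 (ENSMUSG00000073424.9, chr17:32685627-32703352, plus strand) and Cyp4f14 (ENSMUSG00000024292.14, chr17:32905070-32917342, minus strand) lie on chromosome 17. Cyp4v3 (ENSMUSG00000079057.4, chr8:45304944-45333216, minus strand) stands alone on chromosome 8.

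How alike the genes are decides which counts can be told apart, and the stretch that encodes the haem-binding loop shows it. The loop holds the cysteine that binds the haem iron. Below are 60 coding bases of each distinct version, 5′ to 3′, from the GENCODE M21 transcripts. Capitals mark the bases that differ from Cyp4a10. Each stretch spans an exon junction, of exons 11 and 12 in the Cyp4a genes and Cyp4f14, of exons 12 and 13 in Cyp4f15 and of exons 10 and 11 in Cyp4v3.
Cyp4a10: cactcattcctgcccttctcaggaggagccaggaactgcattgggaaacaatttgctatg
Cyp4a12a: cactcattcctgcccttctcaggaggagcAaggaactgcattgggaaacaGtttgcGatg
Cyp4a14: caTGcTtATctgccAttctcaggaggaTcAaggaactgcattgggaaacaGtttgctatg
Cyp4f14: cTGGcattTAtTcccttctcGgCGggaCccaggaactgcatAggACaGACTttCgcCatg
Cyp4f15: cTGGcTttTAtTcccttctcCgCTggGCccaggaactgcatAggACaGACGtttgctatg
Cyp4v3: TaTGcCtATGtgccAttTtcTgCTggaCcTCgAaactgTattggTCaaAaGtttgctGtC

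Cyp4a31 and Cyp4a32 have the same 60 bases as Cyp4a10, and Cyp4a12b has the same as Cyp4a12a. Cyp4a12a differs from Cyp4a10 at 3 of the 60 positions, Cyp4a14 at 9, Cyp4f14 and Cyp4f15 at 19 each, and Cyp4v3 at 23. Over the whole coding sequence, Cyp4a12a and Cyp4a12b were 98.5% identical, with 23 differences in 1524 aligned bases. Cyp4a10 was 97.2% identical to Cyp4a32 and 96.6% to Cyp4a31, but 76.1% to Cyp4a14. Fragments that map to several places were not counted, so genes with long identical stretches lose counts. Of all 100-base windows in their transcripts, 35.8% in Cyp4a12a and 36.2% in Cyp4a12b occurred in the transcript of another gene, against 20.1% in Cyp4a32, 12.7% in Cyp4a10, 8.22% in Cyp4a31 and 5.77% in Cyp4v3, there with the gene model Gm45753. No window of Cyp4a14, Cyp4f14 or Cyp4f15 was shared. The counts of Cyp4a12a and Cyp4a12b, and those of Cyp4a10, Cyp4a31 and Cyp4a32, are therefore uncertain between the copies.

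Between 14275793 and 20815066 fragments per library were counted on genes. The livers carried their label: the summed level of 11 hepatocyte markers ranged from 100337 to 130614 CPM, the unit of counts after scaling by library size, and of 8 kidney and intestine markers, the kidney genes Umod and Slc12a1 had 0 counts in every library. That list, led by Fabp2, summed to 27.6 to 36.6 CPM in the 7 mice for which a liver weight is recorded and to 43.2 to 62.3 CPM in the other 5. The 7 mice are VDD4, VDD5, VDD6, VDS3, VDS4, VDS5 and VDS6, and the diet comparison is also given within these sets. The liver of VDD2 stood apart. Its summed level of 6 cholangiocyte markers was 117 CPM, against 23.9 to 72.1 in the other VDD-F1 and 28.1 to 51.6 in the VDS-F1 livers, and that of 9 stellate cell and fibroblast markers was 941 CPM, against 326 to 609 and 306 to 475. The library of VDS6 also stood apart, with 11.1% of fragments on no annotated exon of the counted strand, against 2.52% to 4.94% in the other 11. In whole tissue, fewer hepatocytes and less Cyp4 mRNA per hepatocyte cannot be told apart.

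Levels were compared between genes as CPM per kilobase of exon. In VDS-F1 livers, Cyp4a12a had the highest mean at 142 ± 41.2, followed by Cyp4f14 at 124 ± 16.3, Cyp4v3 at 114 ± 26.2 and Cyp4a10 at 99.9 ± 38.0 CPM per kilobase (SD, n = 6 each). The steps between these neighbours were smaller than their spread. Cyp4f15 at 50.3 ± 8.98, Cyp4a12b at 43.0 ± 13.6 and Cyp4a14 at 41.8 ± 28.1 CPM per kilobase (SD, n = 6 each) came next, and their means again differed by less than the spread. Of these 3 genes only Cyp4a14 overlapped the first 4, where its highest value, 92.0 CPM per kilobase in VDS6, was above the lowest Cyp4a10 and Cyp4v3 values of 62.9 and 71.3. Cyp4a32, with 10.4 ± 1.66, and Cyp4a31, with 1.92 ± 0.902 CPM per kilobase (SD, n = 6 each), were the lowest, and their ranges did not overlap each other.

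In VDD-F1 livers the order was different at the top, with Cyp4a10 at 137 ± 111, Cyp4a12a at 119 ± 52.7, Cyp4f14 at 109 ± 13.4, Cyp4a14 at 90.3 ± 43.3 and Cyp4v3 at 86.5 ± 20.5 CPM per kilobase (SD, n = 6 each). These 5 means lay within the spread of Cyp4a10 alone. Cyp4f15 followed at 48.6 ± 9.10, Cyp4a12b at 46.1 ± 17.5, Cyp4a32 at 10.4 ± 4.77 and Cyp4a31 at 3.36 ± 1.52 CPM per kilobase (SD, n = 6 each).

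**Figure D1:**
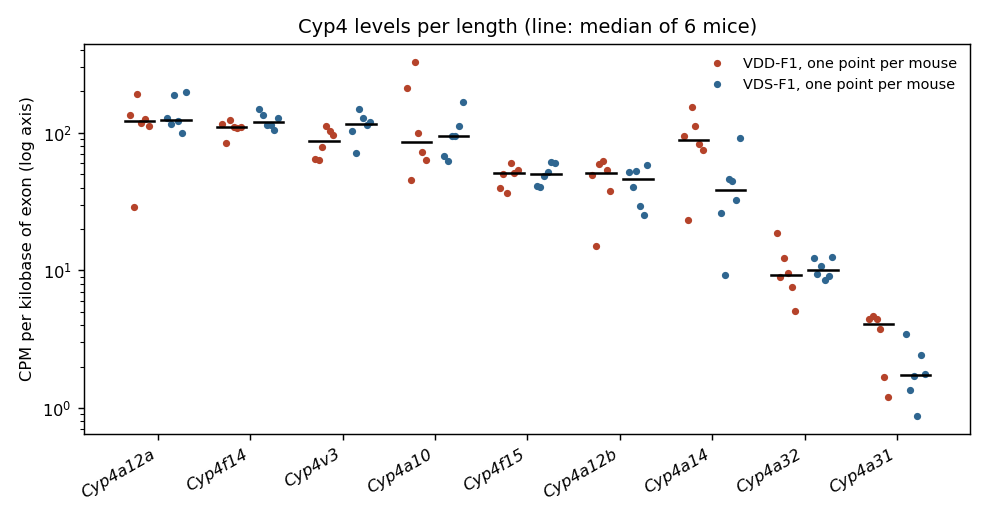
Level of each Cyp4 gene in CPM per kilobase of exon, on a log axis, in every VDD-F1 (red) and VDS-F1 (blue) liver, with the median of each group of 6 as a black line. The genes are ordered by their VDS-F1 mean. Cyp4a12a, Cyp4f14, Cyp4v3 and Cyp4a10 overlap at the top, and Cyp4a31 is lowest in both groups. The VDS-F1 mean runs from 142 for Cyp4a12a to 1.92 for Cyp4a31.

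The diet comparison was made with edgeR's quasi-likelihood test on all 12453 genes, with Benjamini-Hochberg adjustment over all of them. At an adjusted p under 0.05, 0 of the 9 Cyp4 genes differed between VDD-F1 and VDS-F1 livers, beside 0.0402% of all genes. DESeq2's Wald test and voom with sample quality weights also called 0 of the 9, where DESeq2 called 4.05% and voom 4.74% of all genes. At an unadjusted p under 0.05, 3 of the 9 differed, 2 higher and 1 lower in VDD-F1, beside 15.8% of all genes (9.55% higher and 6.29% lower). With so many genes at that level, 3 of 9 genes by themselves show little. Fold changes are given as log2FC, the log2 of VDD-F1 over VDS-F1, with its standard error (SE). The median log2FC of the 9 genes was -0.014, and that of all genes was 0.0041. The ranges of the 6 VDD-F1 and 6 VDS-F1 mice overlapped for all 9 genes, where 1.18% of all genes had ranges that did not.

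Cyp4a14 had the smallest p-value of the 9 genes. In VDD-F1 livers its lowest, median and highest levels were 60.9, 231 and 402 CPM, and in VDS-F1 livers 24.0, 100.2 and 239 CPM. Of the VDD-F1 mice, 5 had at least 194.5 CPM, while 5 of the VDS-F1 mice had at most 120 CPM. VDD2, at 60.9 CPM, and VDS6, at 239 CPM, were the exceptions that made the groups overlap. These are the liver and the library that stood apart, and whether that bears on their Cyp4a14 levels was not tested. The mean was 235 ± 112 CPM in VDD-F1 and 109 ± 73.0 CPM in VDS-F1 (SD, n = 6 each), a log2FC of 1.11 (SE 0.46, adjusted p = 0.261). The difference stayed positive when each mouse was left out, from 0.89 without VDD3 to 1.51 without VDS6, and had an unadjusted p under 0.05 in 8 of these 12 fits.

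Cyp4a10 is the other gene of the pair known to be induced through PPARα. Its lowest, median and highest levels were 95.4, 182 and 694 CPM in VDD-F1 and 133, 200.3 and 354 CPM in VDS-F1 livers. VDD1, at 443 CPM, and VDD3, at 694 CPM, were above all VDS-F1 mice, and VDD2 was the lowest of all 12 mice. The highest VDD-F1 value was 7.28 times the lowest, against 2.67 times in VDS-F1, the widest spread of the 9 genes in VDD-F1 livers. The means were 288 ± 234 and 211 ± 80.1 CPM (SD, n = 6 each), a log2FC of 0.45 with an interval of 2 standard errors each way from -0.40 to 1.31 (adjusted p = 0.647). Without VDD3 it was -0.03, so its sign rests on that mouse.

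Cyp4a31, a close copy of Cyp4a10, was the least expressed member, with a mean count of 109.5. Its lowest, median and highest levels were 3.03, 10.3 and 11.7 CPM in VDD-F1 and 2.18, 4.35 and 8.64 CPM in VDS-F1 livers. In 4 VDD-F1 mice the level was above every VDS-F1 mouse, and in VDD5 and VDD6 it was within the VDS-F1 range. The log2FC was 0.80 (SE 0.37, adjusted p = 0.309), and the unadjusted p stayed under 0.05 in 4 of the 12 fits with a mouse left out.

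Cyp4a32, the other close copy, had 7.79, 14.2 and 28.9 CPM as the lowest, median and highest level in VDD-F1 and 13.2, 15.5 and 19.2 CPM in VDS-F1 livers. VDD1 was the highest and VDD6 the lowest of all mice, and the VDS-F1 mice lay between them. Its log2FC was -0.01, with an interval of 2 standard errors each way from -0.50 to 0.47 (adjusted p = 0.988). When Cyp4a10, Cyp4a31 and Cyp4a32 were counted together, the sum was 313 ± 241 CPM in VDD-F1 and 232 ± 80.7 CPM in VDS-F1 (SD, n = 6 each), a log2FC of 0.43 (SE 0.40, adjusted p = 0.639), close to that of Cyp4a10 alone.

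**Figure D2:**
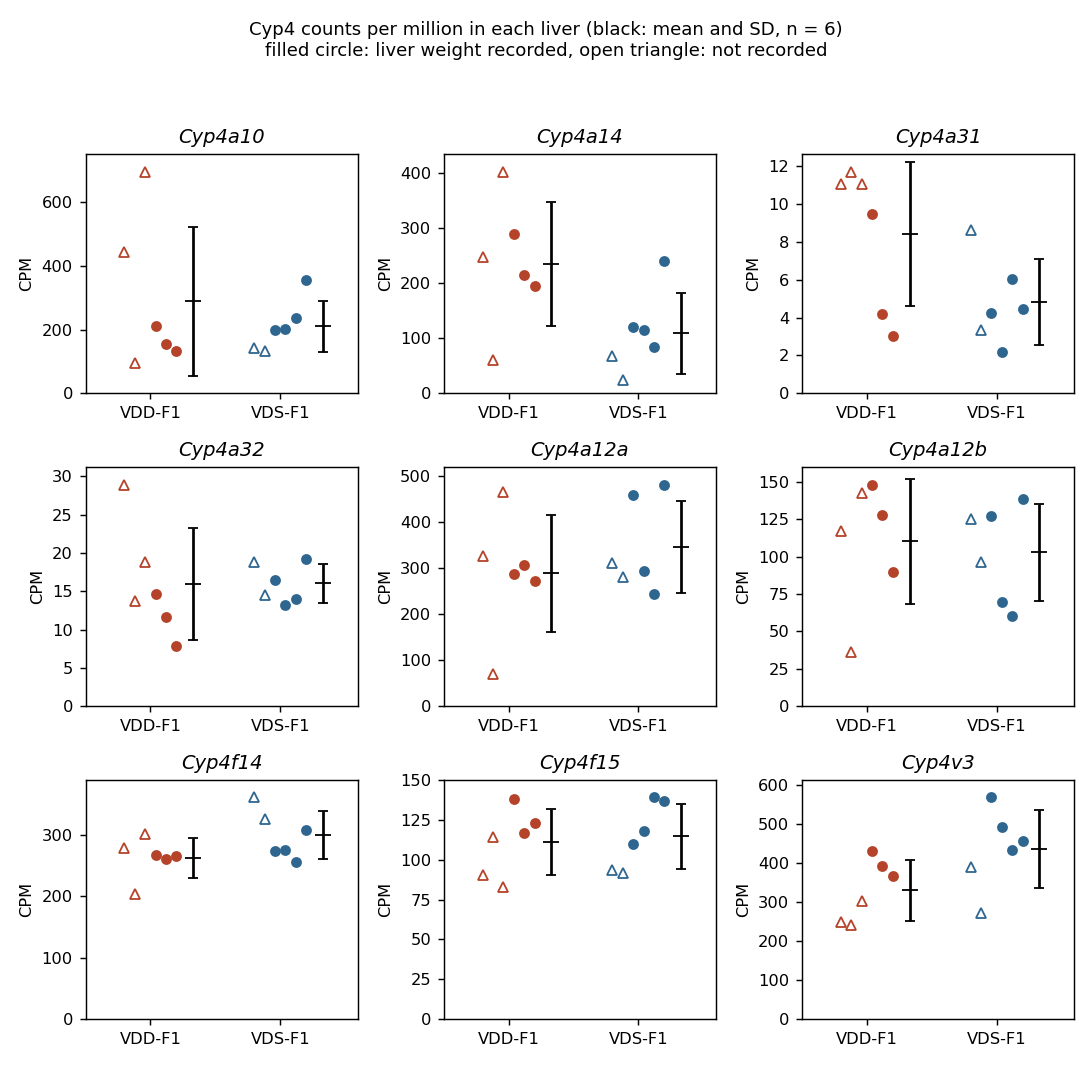
Level of each of the 9 Cyp4 genes in CPM (linear axes from 0) in every VDD-F1 (red) and VDS-F1 (blue) liver, with the mean and SD of each group of 6 in black. Filled circles are mice with a recorded liver weight and open triangles mice without. For Cyp4a10 the open red triangles run from 95.4 to 694 CPM, while the filled red circles run from 133 to 210 CPM.

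The male-predominant pair showed no difference beyond its spread. For Cyp4a12a the lowest, median and highest levels were 69.9, 297 and 466 CPM in VDD-F1 and 242, 303 and 481 CPM in VDS-F1 livers. VDD2 was far below the rest at 69.9 CPM, and the next lowest mouse was VDS5 at 242 CPM. The log2FC was -0.26, with an interval of 2 standard errors each way from -0.90 to 0.38 (adjusted p = 0.737), and -0.06 without VDD2. For Cyp4a12b, the copy that shares most of its sequence, the levels were 36.0, 123 and 148 CPM in VDD-F1 and 60.6, 111 and 139 CPM in VDS-F1 livers. VDD2 was again the lowest of all mice. The log2FC was 0.10, with an interval from -0.48 to 0.68 (adjusted p = 0.910). The sum of the pair was 398 ± 165 CPM in VDD-F1 and 448 ± 128 CPM in VDS-F1 (SD, n = 6 each), a log2FC of -0.17 (SE 0.30, adjusted p = 0.834).

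Cyp4v3 was the member that was lower in VDD-F1 at an unadjusted p under 0.05. Its lowest, median and highest levels were 241, 334 and 430 CPM in VDD-F1 and 271, 443 and 567 CPM in VDS-F1 livers. The means were 329 ± 77.9 and 434 ± 99.7 CPM (SD, n = 6 each), a log2FC of -0.40 (SE 0.18, adjusted p = 0.301). It was negative in all 12 fits with a mouse left out, from -0.50 to -0.31, with an unadjusted p under 0.05 in 5 of them.

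Cyp4f14, on chromosome 17, varied least between mice in both groups, with coefficients of variation (SD over mean) at 12.3% for VDD-F1 and 13.1% for VDS-F1. It had 204, 266 and 302 CPM as its lowest, median and highest level in VDD-F1 and 256, 292 and 362 CPM in VDS-F1 livers. The highest value was 1.48 times the lowest in VDD-F1 and 1.41 times in VDS-F1. Its log2FC was -0.19, with an interval of 2 standard errors each way from -0.41 to 0.03 (adjusted p = 0.415). Cyp4f15 had 82.9, 116 and 138 CPM in VDD-F1 and 91.6, 114 and 139 CPM in VDS-F1 livers, so its ranges were nearly the same. The log2FC of Cyp4f15 was -0.05, with the narrow interval from -0.33 to 0.23 (adjusted p = 0.906).

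VDD2 had the lowest VDD-F1 level of Cyp4a10, Cyp4a12a, Cyp4a12b, Cyp4a14, Cyp4f14 and Cyp4v3, and the highest of Cyp4a31. Its 9 Cyp4 genes summed to 847 CPM, against 1454 to 2422 CPM in the other VDD-F1 and 1241 to 2136 CPM in the VDS-F1 livers. Its hepatocyte markers summed to 111994 CPM, within the range of the other livers. The part that its high cholangiocyte and fibroblast markers have in the low Cyp4 levels was not tested. Without VDD2, the log2FC of Cyp4a14 was 1.31 (adjusted p = 0.207), that of Cyp4v3 was -0.32 (adjusted p = 0.480) and that of Cyp4a31 was 0.67 (adjusted p = 0.497), so 1 member in place of 3 had an unadjusted p under 0.05.

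The sets of mice split Cyp4a10. Among mice with a recorded liver weight, VDD4, VDD5 and VDD6 had 210, 154 and 133 CPM, and VDS4, VDS5 and VDS6 had 200.6, 235 and 354 CPM, with VDS3 at 200.004 CPM. Only VDD4 reached into the VDS-F1 range. Among the others, VDD1, VDD2 and VDD3 had 443, 95.4 and 694 CPM, and VDS1 and VDS2 had 142 and 133 CPM. In the 7 mice the log2FC was -0.58 (adjusted p = 0.0986), and in the 5 mice it was 1.58 (adjusted p = 0.999). The difference between the sets, tested as an interaction over all 12 mice, was -2.16 (SE 0.72, adjusted p = 0.373). At an adjusted p under 0.05, 0 of the 9 Cyp4 genes differed in their diet effect between the sets, beside 0.0883% of all genes, and 9.01% of all genes did so at an unadjusted p under 0.05. Leaving out VDD2 moved the Cyp4a10 difference to -2.62 and past the threshold (adjusted p = 0.00148), in a fit where 2.68% of all genes passed. Without VDD3 it was -1.56. With no filter on low counts both Cyp4a10, at -2.15, and Cyp4a14 passed, where 1.49% of all genes did.

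Within the 7 mice, 4 of the 9 Cyp4 genes had an unadjusted p under 0.05, beside 25.5% of all genes, and 0 were called at the study's thresholds of an adjusted p under 0.05 and a change of more than 1, beside 4.30% of all genes. Within the 5 mice it was 1 of the 9, beside 3.79% of all genes, and 0 were called, beside 0% of all genes. Cyp4a14 had a positive log2FC in both sets, 0.74 in the 7 mice (adjusted p = 0.119) and 2.35 in the 5 mice (adjusted p = 0.999). The difference between the sets was -1.62 (SE 0.83, adjusted p = 0.599). With the set as a term, its log2FC was 1.38 (adjusted p = 0.166). Cyp4v3 had nearly the same value in both, -0.30 in the 7 mice (adjusted p = 0.0993) and -0.33 in the 5 mice (adjusted p = 0.999). Cyp4a32 was -0.48 in the 7 mice (adjusted p = 0.172) and 0.30 in the 5 mice (adjusted p = 0.999), an order like that of Cyp4a10 with a difference of -0.77 (adjusted p = 0.611). In each set at least 1 Cyp4 gene had ranges that did not overlap. In the 7 mice this was Cyp4v3, with 365 to 430 CPM in VDD-F1 and 431 to 567 CPM in VDS-F1, where 23.4% of all genes did not overlap. In the 5 mice these were Cyp4a31, with 11.05 to 11.7 CPM in VDD-F1 and 3.36 to 8.64 CPM in VDS-F1, and Cyp4f14, with 204 to 302 CPM and 326 to 362 CPM, where 18.5% of all genes did not overlap. These shares are so high that such a gap says little about a single gene.

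**Figure D3:**
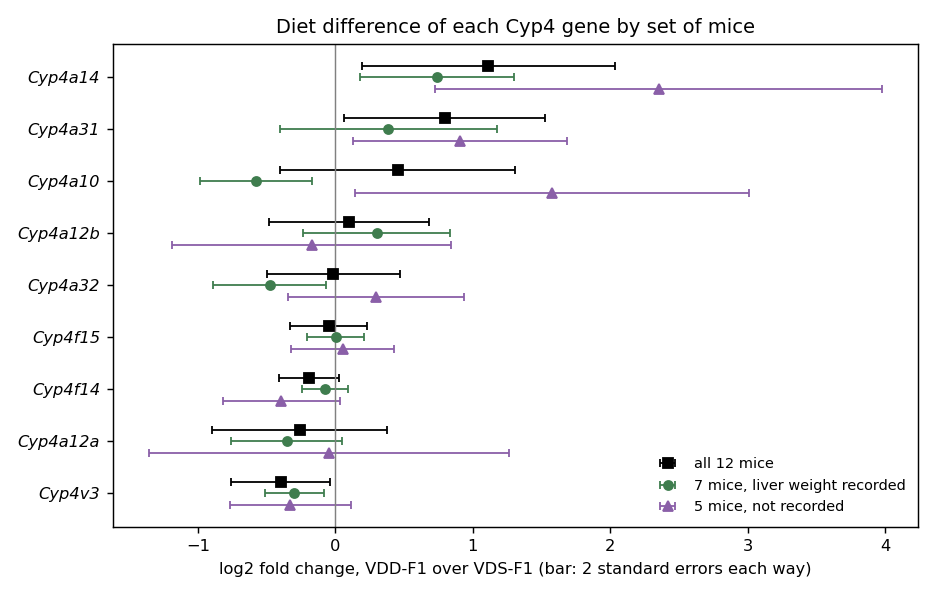
Log2 fold change (log2FC) of each Cyp4 gene, VDD-F1 over VDS-F1, in all 12 mice (black squares), in the 7 mice with a recorded liver weight (green circles) and in the 5 mice without (purple triangles), with bars of 2 standard errors each way. The green and purple points of Cyp4a10 lie on opposite sides of 0, at -0.58 and 1.58, while those of Cyp4a14 both lie above 0 and those of Cyp4v3 both below.

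The ratio of Cyp4a14 to Cyp4a10 counts separated 3 livers from the other 9. It was 1.38 in VDD4, 1.398 in VDD5 and 1.46 in VDD6. VDD1, VDD2 and VDD3 had ratios of 0.557, 0.639 and 0.579, although their Cyp4a10 levels spanned 95.4 to 694 CPM. In VDS1 to VDS6 the ratios were 0.479, 0.181, 0.599, 0.577, 0.360 and 0.677. So the VDD-F1 mice with a recorded liver weight had more Cyp4a14 than Cyp4a10 counts, and each other mouse had fewer, with VDS2 the lowest. This ratio was chosen after its values were seen and is given without a test. The ratio of Cyp4a12a to Cyp4a12b, for comparison, ran from 1.93 to 3.27 in VDD-F1 and from 2.49 to 4.21 in VDS-F1 livers, and the groups overlapped over all 12 mice. Within the 7 mice with a recorded liver weight they did not, with 1.93 to 3.03 in VDD4 to VDD6 and 3.47 to 4.21 in VDS3 to VDS6. In these mice the CPM ranges of 23.4% of all genes did not overlap either. The counts of this pair are uncertain between the copies, and its ratio was not tested.

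**Figure D4:**
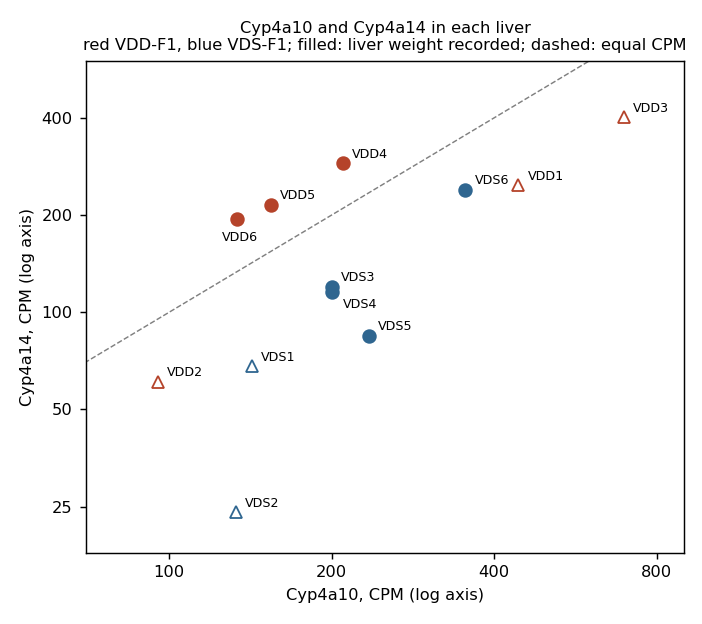
Cyp4a14 against Cyp4a10, both in CPM on log axes, for each VDD-F1 (red) and VDS-F1 (blue) liver. Filled circles are mice with a recorded liver weight, open triangles mice without, and the dashed line marks equal CPM. VDD4, VDD5 and VDD6 lie above the line, with ratios from 1.38 to 1.46, and the other 9 livers lie below it, with ratios from 0.181 to 0.677.

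Across the 12 mice, the Spearman rho of log2 CPM was 0.762 between Cyp4a10 and Cyp4a14, 0.713 between Cyp4a12a and Cyp4a12b, 0.741 between Cyp4a12b and Cyp4a14, and 0.720 between Cyp4a12a and Cyp4a32. Cyp4f14 and Cyp4f15, whose coding sequences were 82.1% identical, ran the opposite way, with a rho of -0.510. Within VDD-F1 livers Cyp4a10 and Cyp4f14 had a rho of 0.943 and within VDS-F1 livers of -0.543. For Cyp4a10 and Cyp4f15 the order was reversed, with -0.486 within VDD-F1 and 0.943 within VDS-F1 livers. For Cyp4a10 and Cyp4a14 the rho was 0.943 within VDD-F1 and 0.771 within VDS-F1 livers. The values within a group rest on 6 mice and the others on 12, and both values of a point come from the same library. Over all tested genes outside the 9, the pattern of Cyp4a14 was closest to Gclc, which encodes the catalytic subunit of the first enzyme of glutathione synthesis (rho 0.916), Rictor (0.874), Txnrd3 (0.860), Phf13 (0.853) and Paip2b (0.839). That of Cyp4a12a was closest to Parp1 (0.916), mt-Co1 (0.909), Gga2 (0.902), Ap2a1 (0.895) and Nomo1 (0.874), and that of Cyp4f14 to Chid1 and Dmgdh (0.923 each) and Sucnr1, Sgsm1 and Zswim3 (0.916 each). Being the highest values picked from so many genes over 12 mice, they would be high also among unrelated genes, and they were not tested.

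Of the 11 other Cyp4 genes, 4 reached a mean count of 12. Cyp4f16 had a log2FC of 1.34 (SE 0.47, adjusted p = 0.195), with 3.18 ± 2.33 CPM in VDD-F1 and 1.26 ± 0.872 CPM in VDS-F1 (SD, n = 6 each). Its highest level was 7.62 CPM among VDD-F1 mice, in VDD2, and 3.01 CPM among VDS-F1 mice, in VDS2. Cyp4f13 was at 46.0 ± 8.37 and 55.1 ± 7.36 CPM (SD, n = 6 each), a log2FC of -0.26 (adjusted p = 0.349). Cyp4b1, better known from lung, had a log2FC of -0.26 (adjusted p = 0.367) and Cyp4f17 of -0.07 (adjusted p = 0.859). Cyp4x1, Cyp4a29 and Cyp4a30b had 0 counts in every library.

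P450 enzymes receive electrons through partner proteins. Of 5 redox partner genes, all tested, 0 were higher and 1 was lower in VDD-F1 at an unadjusted p under 0.05, beside 9.55% and 6.29% of all genes, and 0 were called at an adjusted p. That gene was Cyb5a, cytochrome b5, with 464 ± 60.8 CPM in VDD-F1 and 570.1 ± 69.5 CPM in VDS-F1 (SD, n = 6 each), a log2FC of -0.30 (adjusted p = 0.223). The median log2FC of the list was -0.19.

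Among 20 genes of the steps that follow hydroxylation, 1 was higher and 4 were lower in VDD-F1 at an unadjusted p under 0.05, beside 9.55% and 6.29% of all genes, 0 were called at an adjusted p, and the median log2FC was -0.14. Adh4 and Adh1, alcohol dehydrogenases, had log2FC values of -0.41 (adjusted p = 0.154) and -0.26 (adjusted p = 0.247). Nudt7, a peroxisomal coenzyme A hydrolase, was at -0.56 (adjusted p = 0.134), with 269 ± 68.2 CPM in VDD-F1 and 399 ± 72.2 CPM in VDS-F1 (SD, n = 6 each). Ehhadh, the peroxisomal bifunctional enzyme that takes part in shortening dicarboxylic acids, was the one on the higher side, at 0.34 (adjusted p = 0.258).

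Of 30 PPARα target genes other than the Cyp4a genes, 5 were higher and 0 lower in VDD-F1 at an unadjusted p under 0.05, beside 9.55% of all genes higher, 0 were called at an adjusted p, and the median log2FC was -0.00048. Cidec, a lipid droplet protein, had 10.6 ± 7.63 CPM in VDD-F1 and 1.87 ± 0.973 CPM in VDS-F1 (SD, n = 6 each), a log2FC of 2.52 (adjusted p = 0.0640). The fatty acid transporter gene Cd36 was at 0.90 (adjusted p = 0.0947) and the acyl-CoA thioesterase Acot2 at 0.77 (adjusted p = 0.269), and Ehhadh belongs to this list as well. The other 25 genes had an unadjusted p of 0.05 or more, and the summed level of the list ranged from 8952 to 13779 CPM in VDD-F1 and from 9701 to 12566 CPM in VDS-F1. In the 7 mice with a recorded liver weight it was 8998 to 10315 CPM in VDD-F1 and 11726 to 12566 CPM in VDS-F1. Of the other 5 mice, VDD1 and VDD3 had 13779 and 13774 CPM, and VDS1 and VDS2 had 9701 and 10121 CPM, an order by set like that of Cyp4a10. VDD2 had the lowest sum and the highest Cidec level, 24.9 CPM. Ppara itself had a log2FC of -0.08 (adjusted p = 0.913), with 145 ± 64.4 and 153 ± 44.1 CPM (SD, n = 6 each), and its partner Rxra of -0.20 (adjusted p = 0.320). Of these 2 and 8 more receptors and cofactors, 1 was higher and 1 lower at an unadjusted p under 0.05, beside 9.55% and 6.29% of all genes, 0 were called at an adjusted p, and the median was -0.09. The higher one was Pparg at 0.59 (adjusted p = 0.2202) and the lower one Med1 at -0.21 (adjusted p = 0.266).

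Cyp4a12a belongs to the genes that male livers express more, so the others of that kind were counted beside it. Of 11 such genes outside the family, 0 were higher and 7 lower in VDD-F1 at an unadjusted p under 0.05, beside 6.29% of all genes lower, 0 were called at an adjusted p, and the median log2FC was -1.31. Cyp7b1, an oxysterol hydroxylase, had 81.1 ± 46.6 CPM in VDD-F1 and 260 ± 74.1 CPM in VDS-F1 (SD, n = 6 each), a log2FC of -1.68 (adjusted p = 0.0918). Hsd3b5, a steroid-metabolizing enzyme, was at -1.73 (adjusted p = 0.125), the urinary protein gene Mup7 at -2.95 (adjusted p = 0.130) and Moxd1 at -4.91 (adjusted p = 0.122). Mup7 belongs to a family of near-identical genes, so its counts are uncertain. Moxd1 was above 79 CPM only in VDS1 and VDS2 and at most 4.4 CPM in the other 10 livers. Cyp4a12a, at -0.26, lay above the median of this list, and its VDS-F1 and VDD-F1 medians, 303 and 297 CPM, were almost equal. VDD2 was the lowest VDD-F1 mouse both for Cyp4a12a and for Hsd3b5, at 2.56 CPM, and Cyp7b1, at 13.3 CPM.

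In 16 female-predominant genes, of which 6 were tested, 1 was higher and 0 were lower at an unadjusted p under 0.05, beside 9.55% and 6.29% of all genes, 0 were called at an adjusted p, and the median log2FC was 0.17. It was Cyp2a4, with 21.4 ± 17.5 CPM in VDD-F1 and 0.138 ± 0.159 CPM in VDS-F1 (SD, n = 6 each, adjusted p = 0.0627). It was at 25.2 to 40.4 CPM in VDD2, VDD4, VDD5 and VDD6, and at 0.126 CPM in VDD1 and 0 in VDD3. Of 13 tested regulators that set sex differences in liver, most of them of growth hormone signalling, 0 were higher and 1 lower at an unadjusted p under 0.05, beside 9.55% and 6.29% of all genes, and 0 were called at an adjusted p, with a median of -0.12. The gene was Hnf4a at -0.29 (adjusted p = 0.301). Ghr, the growth hormone receptor, was at -0.21 (adjusted p = 0.406), Stat5b at -0.12 (adjusted p = 0.643) and Bcl6 at -0.77 (adjusted p = 0.613).

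**Figure D5:**
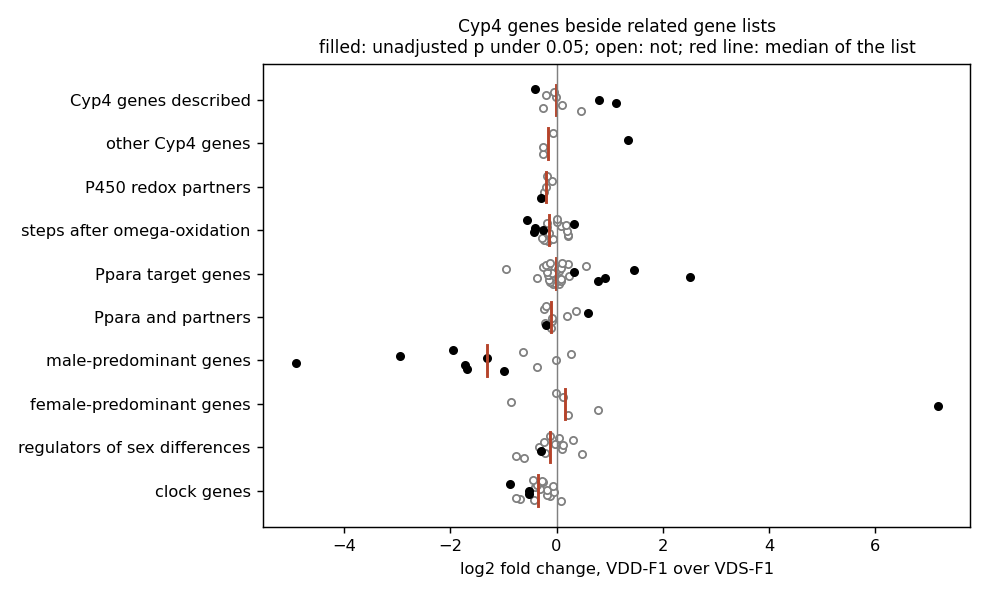
Log2 fold change, VDD-F1 over VDS-F1 in all 12 mice, of every tested gene in the Cyp4 family and 9 related lists. Filled points have an unadjusted p under 0.05, open points do not, and the red line is the median of the list. The medians lie at -0.014 for the 9 Cyp4 genes, -0.00048 for the PPARα targets and -1.31 for the male-predominant genes.

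Cyp4a genes vary over the day, and the time of dissection of each mouse is not given in the sources used here. Of 18 clock genes, 0 were higher and 3 lower in VDD-F1 at an unadjusted p under 0.05, beside 9.55% and 6.29% of all genes, and 0 were called at an adjusted p, with a median log2FC of -0.34. They were Cry2 at -0.52 (adjusted p = 0.1004), Hlf at -0.52 (adjusted p = 0.103) and Per2 at -0.88 (adjusted p = 0.197). The summed level of the clock genes was 451 to 710.1 CPM in VDD-F1 and 555 to 1028 CPM in VDS-F1. Their part in the Cyp4 values was not tested.

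Other cell types were followed through their markers, counted at an unadjusted p under 0.05, where 9.55% of all genes were higher and 6.29% lower. In stellate cells and fibroblasts, 4 of 9 markers were higher in VDD-F1, among them the collagen genes Col3a1 at 1.78 (adjusted p = 0.0855) and Col1a1 at 2.27 (adjusted p = 0.0883), beside Pdgfrb and Dcn. Of 6 cholangiocyte markers, 4 were higher, Spp1 at 0.83 (adjusted p = 0.275), Epcam, Sox9 and Cldn7. Of 8 macrophage markers, 2 were lower, Timd4 and Clec4f. Among 8 endothelial markers Lyve1 was higher and Clec4g and Stab2 were lower, and among 11 hepatocyte markers Trf was higher and Serpina1c and Hnf4a were lower. Of the tested lymphocyte markers (3 of 7) and kidney and intestine markers (3 of 8), 0 passed. At an adjusted p, 0 markers of any of these types were called. The part of these markers in the Cyp4 differences was not tested.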

How the data were processed

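Liver RNA of 12 male mice was sequenced after removal of ribosomal RNA, with 1 library per mouse. After trimming, the authors used STAR with mm10, and the files they deposited hold raw counts, for every gene, of fragments that map to 1 place. No normalization had been applied. The reverse-strand count was used, which held 92.7% to 95.8% of the stranded counts per library and 99.8% to 99.9% for the Cyp4 genes. Gene positions and transcripts are those of GENCODE M21 for GRCm38 (the study names M15), and 52489 of 52636 genes were matched.

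Genes that reached a mean count of 12 were compared in R 4.3.3 with edgeR 4.0.16 (TMM, legacy form of the quasi-likelihood test) and Benjamini-Hochberg adjustment over all 12453 genes. The study's methods name DESeq2, which was an alternative here (1.42.0), as was voom in limma 3.58.1. p-values are two-sided. Adjusted p under 0.05 counts as called, and all 5 genes called also had a log2 fold change above 1 or below -1. p-values measure the spread between these mice. CPM uses TMM-scaled library sizes, and levels per length divide it by the merged exon length. On simulated counts for this comparison of 12453 genes, edgeR called 87 of 100 genes changed 2-fold and 98 of 100 changed 4-fold, with 9 false calls. The changed genes were drawn from the better counted ones, and no sets of mice or outlying livers were simulated. These shares therefore do not give the chance of calling a Cyp4 gene. In the real data Cyp4a14, with a fold of 2.16, was not called (adjusted p = 0.261 in edgeR's test).

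The Cyp4 genes, gene lists and alternatives were chosen with earlier results of these data known. Named are all 9 genes, the other Cyp4 genes above the filter, up to 4 genes per list with the smallest unadjusted p under 0.05, the 5 genes closest in pattern to Cyp4a12a, Cyp4a14 and Cyp4f14, and the regulators Ppara, Rxra, Stat5b, Ghr, Bcl6 and Hnf4a, and 1 further regulator of that rule is not reported here. Which mice have a recorded liver weight was read from a picture in the study's supplement, matched by mouse name, and is not in the sample labels, so each value within a set rests on that reading. Figures were drawn with matplotlib 3.10.9.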

Additional observations from a re-analysis of the deposited data

How the results depend on the processing

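In every alternative run, 0 of the 9 Cyp4 genes passed an adjusted p under 0.05 in the diet comparison. The log2 fold changes of Cyp4a14, Cyp4f14 and Cyp4v3 kept their sign in all of them, with Cyp4a14 between 0.74 and 2.35 and Cyp4v3 between -0.50 and -0.30. Those of Cyp4a31 and Cyp4a12a kept it in all except the paralog sums, where both were merged with their copies and have no value. The number of DEGs among all genes (adjusted p under 0.05 and a size of log2FC past 1) was 5, and was 253 with DESeq2, 252 with voom, 70 with no filter on low counts, 21 with the set of mice as a term, 536 in the 7 mice with a recorded liver weight and 0 in the other 5 (472 at an unadjusted p under 0.05), 2 with a robust fit, 17 with the newer edgeR form, chosen after seeing the data, and 0 to 260 with a mouse left out. It was 260 without VDD1 and 93 without VDD3, 12 without VDS2, 1 without VDS6 and 0 without VDD4, VDD5, VDD6, VDS3, VDS4 or VDS5. The cause was not tested.

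Cyp4 genes at an unadjusted p under 0.05 numbered 3, and 1 both in the 5 mice and with a robust fit, and 1 to 3 with a mouse left out. In the other lists 40 genes had an unadjusted p under 0.05, 66 with voom, 101 in the 7 mice with a recorded liver weight, and 28 to 51 with a mouse left out. Log2 fold changes with another sign were -0.58 (7 mice) for Cyp4a10, -0.17 (5 mice) for Cyp4a12b, 0.0086 (mean count of at least 100) and 0.30 (5 mice) for Cyp4a32, and 0.021 (set as a term), 0.0010 (7 mice) and 0.053 (5 mice) for Cyp4f15. With a mouse left out they ran from -0.026 to 0.66 for Cyp4a10, from -0.016 to 0.28 for Cyp4a12b, from -0.27 to 0.13 for Cyp4a32 and from -0.12 to 0.022 for Cyp4f15. For the difference between the sets, 0 Cyp4 genes were called, 0 to 1 with a mouse left out (Cyp4a10 without VDD2) and 2 with no filter, Cyp4a10 at -2.15 (adjusted p = 2.10e-10) and Cyp4a14, where 1.49% of 24759 genes were called. The size of the Cyp4a10 difference with no filter was nearly that of the main fit, -2.16 (adjusted p = 0.373). The lower p thus came with the change of filter and not with a larger difference. Over the alternatives the adjusted p for this difference of Cyp4a10 ran from 2.10e-10 to 0.735.

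The same replicate numbers mark different mice, and the deviations of same-numbered mice from their group means had correlations from -0.0840 to 0.0864, so the numbers were not taken as pairs. With the replicate block, 17 DEGs and 0 Cyp4 genes were called. Cyp4a31 had the lowest mean count, 109.5, and the counts of near-identical copies are uncertain at any depth.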
